A study of Homo sapiens with 9 samples.

Results

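The insulin-like growth factor (IGF) axis was described here through 10 genes: the IGF-binding proteins IGFBP2, IGFBP3, IGFBP4, IGFBP5, IGFBP6 and IGFBP7, the receptors IGF1R, IGF2R and INSR, and the docking protein IRS2. They were taken by symbol from a table of 26475 gene symbols, all 10 were found and all 10 had enough counts to be tested among 13784 genes. The set was selected on measured values, namely a fall of IGFBP3 after knockdown of PIP4K2B. Each value of the 10 genes in the comparison of knockdown with Control is therefore a description, given without a p-value. Counts of calls among the 10 genes in that comparison are a description too, and nothing is read from them. RNA was taken from hTERT_RPE1 cells, an established line of retinal pigment epithelium immortalised with telomerase, 24 h after seeding on fibronectin, with 3 libraries per condition. Control cells carried the empty pLKO_1 vector and grew on coated glass. sh_PIP4K2B cells grew on the same glass and were transduced with 1 of 3 hairpins against PIP4K2B, a kinase of the phosphoinositide PtdIns5P, and each library came from another hairpin. Soft cells carried the Control vector and grew on a coated hydrogel of 2.3 kPa. Sample titles name the empty vector and the treatment label a control shRNA, so the labels leave it unsettled if Control and Soft cells made a hairpin. If these cells made none, knockdown of PIP4K2B and expression of a hairpin cannot be told apart in this design. The spread within sh_PIP4K2B includes differences between hairpins, and for Control and Soft nothing says that the libraries came from separate cultures, so p-values measure the spread between these libraries, which may be technical. The stiffness of the gel and its material cannot be told apart in this design.

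IGF1 and IGF2 are secreted growth factors that bind IGF1R, a receptor tyrosine kinase related to the insulin receptor INSR, while IGF2R removes IGF2 from the surroundings and carries it to lysosomes. The binding proteins are secreted and hold IGFs away from, or deliver them to, the receptors, and proteases such as PAPPA release the bound ligand. Activated IGF1R and INSR phosphorylate the docking proteins IRS1 and IRS2, which recruit PI3K and so activate AKT, and AKT keeps FOXO transcription factors out of the nucleus. Cultured cells receive IGFs largely from serum, and cells of the retinal pigment epithelium are known to secrete binding proteins.

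The region before the transcription start is shown for the gene that led the set, IGFBP3, and for the 2 genes with the largest changes on the soft gel, IGFBP5 and IGFBP4. RefSeq promoter entries (GRCh38.p14) were found for 9 of the 10 genes, and IGFBP7 had none. Each sequence is the 250 bases before the start, 5′ to 3′ on the strand of the gene, and capitals mark matches on either strand to the GC box (letters GGGCGG), the TEAD core (letters GGAATG), the TATA box (letters TATAAA) or the FOXO core (letters TGTTTAC). The windows lie at chr7:45921273-45921522 (minus strand) for IGFBP3, chr2:216695550-216695799 (minus strand) for IGFBP5 and chr17:40443200-40443449 (plus strand) for IGFBP4. The start is that of the canonical transcript. The annotated span of IGFBP3 reaches further upstream, so its window lies inside the annotated gene.
IGFBP3: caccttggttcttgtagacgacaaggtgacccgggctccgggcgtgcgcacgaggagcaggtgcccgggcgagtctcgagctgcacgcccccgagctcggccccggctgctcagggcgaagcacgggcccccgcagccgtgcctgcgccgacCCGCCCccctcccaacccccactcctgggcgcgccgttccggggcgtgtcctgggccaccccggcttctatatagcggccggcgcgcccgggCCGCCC
IGFBP5: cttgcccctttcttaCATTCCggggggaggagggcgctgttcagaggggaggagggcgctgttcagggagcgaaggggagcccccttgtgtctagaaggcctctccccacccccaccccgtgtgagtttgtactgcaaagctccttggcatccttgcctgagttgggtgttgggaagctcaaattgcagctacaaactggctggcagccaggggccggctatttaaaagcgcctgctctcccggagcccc
IGFBP4: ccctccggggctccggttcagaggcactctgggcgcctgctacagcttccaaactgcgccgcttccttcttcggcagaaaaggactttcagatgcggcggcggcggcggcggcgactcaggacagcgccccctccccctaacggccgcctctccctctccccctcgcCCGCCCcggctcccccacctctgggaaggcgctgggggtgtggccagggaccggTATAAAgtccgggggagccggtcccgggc
The IGFBP3 window was 76% G and C and held 2 GC boxes, 98 and 6 bases before the start. IGFBP5 held a TEAD core 235 bases before the start and IGFBP4 a GC box at 83 and a TATA box at 29 bases. Among the windows not shown, that of IGFBP6 was the only one with a TEAD core and the only one with a FOXO core, the latter 186 bases before the start. Most of the IGFBP6 window also lies inside the annotated span of that gene. GC boxes can overlap each other. Among 35116 promoter entries of this length, 42.6% held a GC box, 11.9% a TEAD core, 10.7% a TATA box and 2.98% a FOXO core. A match describes letters in the window and not a bound site.

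Library totals ran from 19217346 to 24020799 counts, so that 3 counts, taken as the floor, were worth between 0.131 and 0.148 CPM (counts scaled to equal library totals). Levels below are CPM after TMM normalisation, which also corrects for the make-up of each library. Over the genes tested, the median SD of log2 CPM was 0.081 between Control libraries, 0.073 between Soft libraries and 0.36 between hairpins, while the fit estimated 1 spread for all conditions. The targeted gene itself, PIP4K2B, had 122 ± 2.26 CPM in Control and 122 ± 3.90 CPM in Soft (SD, n = 3), and hairpins #1, #2 and #3 left 48.4, 40.9 and 36.6 CPM of it. Of 13 markers of retinal pigment epithelium, 8 were under 1 CPM in all libraries, and TTR was at 0 and RPE65 and TYR near 0 throughout. Members of this list moved in both directions. OTX2 had means of 10.9 CPM in Control, 17.1 CPM with the hairpins and 37.2 CPM in Soft, and was called higher in both. BEST1, under 1 CPM, was called higher in Soft. KRT18 was called lower in both, RDH5 lower with the hairpins and KRT8 lower in Soft. Summed, the list gave 1991 to 2142 CPM in Control, 758 to 1168 with the hairpins and 971 to 1020 in Soft, most of it KRT8 and KRT18. In the same order, 6 fibroblast markers summed to 699 to 719, 349 to 648 and 670 to 696 CPM, with 2 of them under 1 CPM. COL1A1, DCN, LUM and PDGFRA were called higher in Soft, and COL1A2 and THY1 had log2 fold changes of -2.16 and -0.59 there (adjusted p = 0.0109 and 0.0531, edgeR). The 5 endothelial markers summed to 2.28 to 3.41, 2.46 to 11.5 and 8.34 to 9.81 CPM, with 2 under 1 CPM. The 5 immune markers summed to 64.2 to 68.9, 42.9 to 80.9 and 144 to 149 CPM, with 4 under 1 CPM and CD68 giving most of the sum. The part of these shifts in the results below was not tested. In bulk RNA, fewer cells with a transcript and less transcript per cell cannot be told apart.

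Levels of different genes were compared per length, as counts per kilobase of the canonical transcript scaled to the same total in every library (TPM scale). IGFBP7 and IGFBP3 were among the most abundant transcripts of Control cells. IGFBP7, a binding protein of low affinity for IGFs, was at 3238 ± 64.2 on the TPM scale (SD, n = 3) and above 99.9% of all genes. IGFBP3, the main carrier of IGFs in blood, was at 2198 ± 20.3. IGFBP6, which prefers IGF2 over IGF1, was at 192 ± 2.76, and IGFBP5, which also binds extracellular matrix, was at 118 ± 3.04. The other binding proteins were far lower, IGFBP2 at 17.7 ± 0.757 and IGFBP4 at 5.30 ± 0.939. Among receptors IGF2R was at 67.4 ± 1.90, IGF1R at 7.81 ± 0.557 and INSR at 2.61 ± 0.253, and IRS2 was at 10.6 ± 0.0979. Neighbours in this order differed by more than the sum of their SDs, but the order depends on the length chosen. With the mean length of all annotated transcripts, IGFBP3 (2787) stood above IGFBP7 (2348) and IGFBP5 (185) above IGFBP6 (137) on the TPM scale. With it IGF1R (29.6) also stood above IGFBP2 (9.93) and IRS2 (6.65), and INSR (4.61) above IGFBP4 (3.33), while IGF2R (93.9) kept its place.

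The comparison of sh_PIP4K2B with Control asks which genes follow partial knockdown of the kinase on a stiff surface. IGFBP2, IGFBP3, IGFBP5 and IGFBP6 were lower, and IGF1R, IGF2R and IRS2 higher, with every hairpin than in any Control library, and 34.1% of all genes tested were without overlap between these conditions. Of the 10 genes, 4 passed an adjusted p of 0.01 (edgeR), 1 higher and 3 lower, against 5.54% of all genes tested (2.76% higher, 2.77% lower). Since the set was chosen on this comparison, nothing is read from that count. The median log2 fold change of the 10 genes was -0.03, and that of all genes tested was 0.05.

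IGFBP3 (chr7:45912245-45921874, minus strand, 5 exons) was at 2349, 2356 and 2364 CPM in the Control libraries and at 241, 360 and 494 CPM with hairpins #1, #2 and #3. All hairpins lay far below Control, at 10.2%, 15.3% and 21.0% of its mean, and the SD between hairpins (127 CPM) was much wider than that between Control libraries (7.70 CPM). The fitted log2 fold change was -2.69 (SE 0.23), the lowest of the 10. IGFBP2 (chr2:216632828-216664436, plus strand, 4 exons), a binding protein found in many body fluids, was at 10.8, 10.1 and 9.83 CPM in Control and at 2.49, 3.04 and 2.97 CPM with the hairpins. Its hairpin libraries were close to each other and its log2 fold change was -1.85 (SE 0.14). IGFBP5 (chr2:216672105-216695549, minus strand, 4 exons) was at 310, 305 and 292 CPM in Control and at 76.1, 170 and 142 CPM with the hairpins. It was lowest with hairpin #1, at 25.2% of the Control mean against 56.1% and 46.9% with the others, and the log2 fold change was -1.23 (SE 0.24).

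IGFBP6 (chr12:53097436-53102345, plus strand, 4 exons) was at 75.8, 74.8 and 72.9 CPM in Control and at 61.1, 71.0 and 32.5 CPM with the hairpins. All 3 hairpins were below Control, but hairpin #3 stood apart at 43.6% of the Control mean, and the log2 fold change of -0.44 (SE 0.23) was less than 2 SEs from 0. IGFBP4 (chr17:40443450-40457725, plus strand, 4 exons), the substrate of the protease PAPPA, was at 4.14, 4.52 and 5.72 CPM in Control and at 5.20, 5.25 and 4.70 CPM with the hairpins, so the groups overlapped. IGFBP7 (chr4:57030773-57110385, minus strand, 5 exons) was at 1894, 1863 and 1929 CPM in Control and at 1715, 2345 and 1721 CPM with the hairpins, which lay on both sides of Control. The log2 fold changes were 0.07 (SE 0.14) for IGFBP4 and 0.02 (SE 0.15) for IGFBP7.

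**Figure D1:**
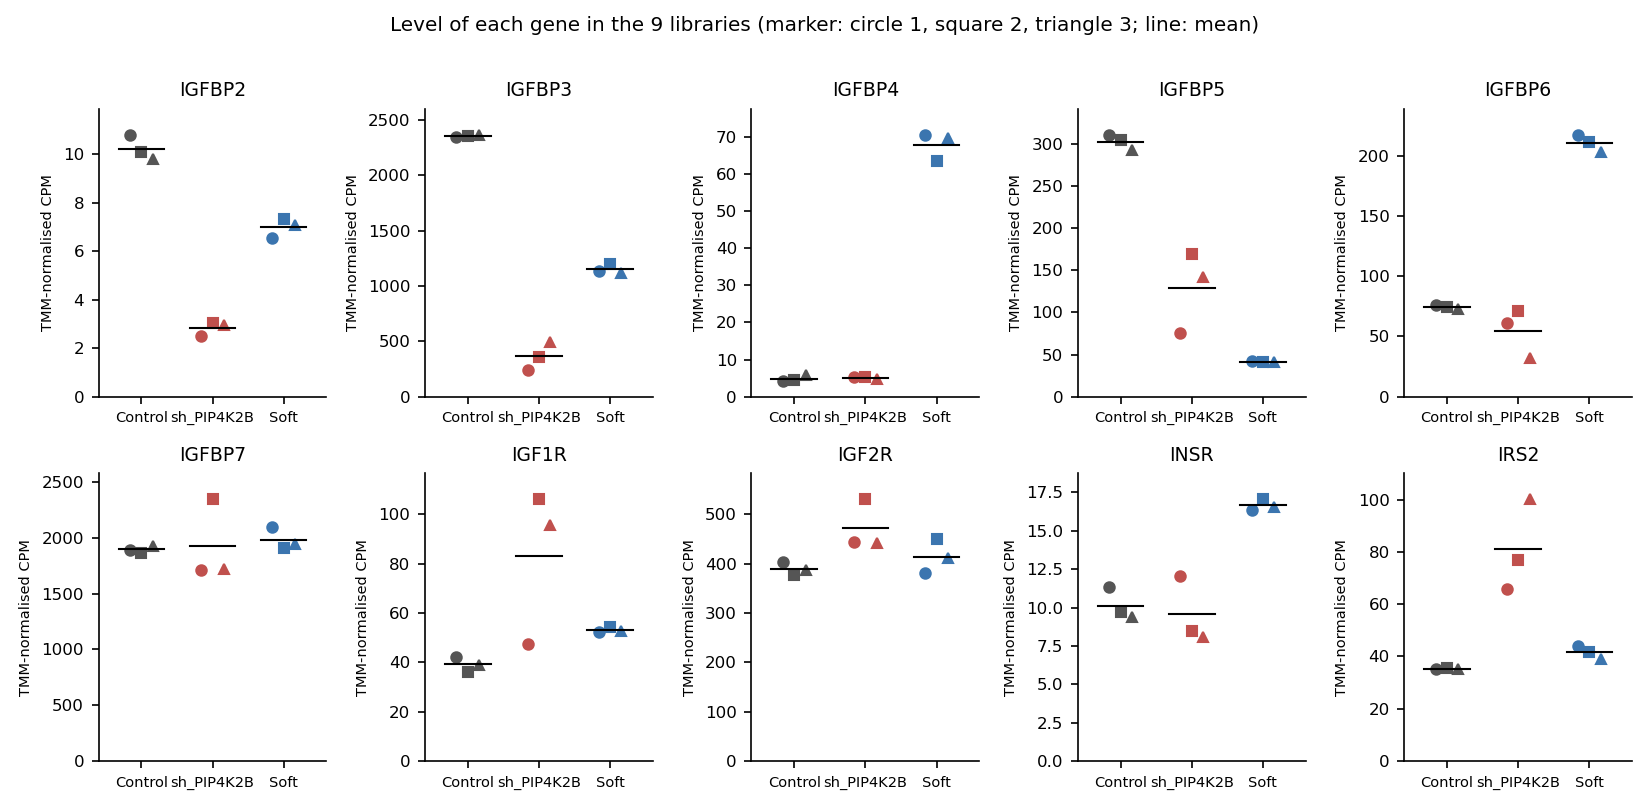
Level of each of the 10 genes in every library, as TMM-normalised CPM on a linear axis from 0, for Control, sh_PIP4K2B and Soft. Markers are libraries or hairpins 1, 2 and 3 (circle, square, triangle) and lines are means of 3. IGFBP3 was at 2349 to 2364 CPM in Control, 241 to 494 CPM with the hairpins and 1120 to 1197 CPM in Soft, while IGFBP4 was at 4.14 to 5.72, 4.70 to 5.25 and 63.5 to 70.5 CPM.

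IRS2 (chr13:109752695-109786583, minus strand, 2 exons) was at 35.3, 35.5 and 35.4 CPM in Control and at 65.9, 77.0 and 100.1 CPM with hairpins #1, #2 and #3. Every hairpin was well above Control, where the SD was 0.128 CPM, and the log2 fold change was 1.19 (SE 0.15). IGF1R (chr15:98648539-98964530, plus strand, 21 exons) was at 42.2, 36.3 and 39.1 CPM in Control and at 47.5, 106 and 95.7 CPM with the hairpins. Hairpin #1 was just above Control, at 121% of its mean, and hairpins #2 and #3 were at 271% and 244%. The log2 fold change was 1.08 (SE 0.25), and it was 1.36 without hairpin #1. IGF2R (chr6:159969082-160113507, plus strand, 48 exons) was at 403, 377 and 387 CPM in Control and at 444, 531 and 441 CPM with the hairpins, a log2 fold change of 0.28 (SE 0.12). INSR (chr19:7112255-7294414, minus strand, 22 exons) was at 11.3, 9.70 and 9.35 CPM in Control and at 12.1, 8.48 and 8.11 CPM with the hairpins, so the groups overlapped (log2 fold change -0.08, SE 0.17, and 0.02 when scaled by library size alone). The count of 4 was 2 without any 1 Control library. When the 6 libraries of these conditions were fitted alone, 0 of the 10 passed by edgeR, with 5 at an unadjusted p under 0.05. DESeq2 on all 9 libraries called 5, and nothing is read from these counts either.

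The comparison of Soft with Control asks which genes follow growth on a soft surface. Binding proteins changed in both directions: IGFBP4 and IGFBP6 rose, IGFBP5, IGFBP3 and IGFBP2 fell, and IGFBP7 had nearly the same level on both surfaces. Of the receptors and IRS2, INSR rose and the others did not pass the test. Of the 10 genes, 6 passed an adjusted p of 0.01 (edgeR), 3 higher and 3 lower, against 30.6% of all genes tested (15.8% higher, 14.8% lower). Their median log2 fold change was 0.16 and that of all genes was 0.01. The libraries of the 2 conditions did not overlap for 8 of the 10 genes and for 79.4% of all genes tested. This comparison uses the same Control libraries as the one that chose the set, and IGFBP3 is counted among the 6 and the 8. Scaling by library size alone moved the median of all genes by 0.11 and gave 2484 higher and 1468 lower calls in place of 2181 and 2036, and the direction of each of the 10 genes was the same under it.

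IGFBP4 was at 70.5, 63.5 and 69.6 CPM in Soft, against 4.14 to 5.72 CPM in Control. The ratio of the means was 14.1, and no Soft library was near the range of Control. This amounted to a log2 fold change of 3.82 (SE 0.15, adjusted p = 1.14e-06, edgeR), the largest of the 10 in either direction. On the TPM scale IGFBP4 went from above 60.5% of all genes in Control to above 91.1% in Soft. IGFBP6 was at 217, 211 and 203 CPM in Soft, against 72.9 to 75.8 CPM in Control, a ratio of means of 2.83. Its log2 fold change was 1.50 (SE 0.23, adjusted p = 0.000813, edgeR). IGFBP5 was at 42.9, 40.7 and 41.3 CPM in Soft, or 13.8% of the Control mean, and the 3 Soft libraries were lower than any hairpin library. It had a log2 fold change of -2.86 (SE 0.25, adjusted p = 4.34e-05, edgeR). IGFBP4, IGFBP5 and IGFBP6 passed the threshold under all 16 alternatives tried.

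IGFBP3 was at 1137, 1197 and 1120 CPM in Soft, or 48.8% of the Control mean, between the Control and the hairpin libraries and overlapping neither, with a log2 fold change of -1.03 (SE 0.22, adjusted p = 0.00434, edgeR). IGFBP2 showed the same order, at 6.57, 7.33 and 7.11 CPM in Soft, or 68.4% of the Control mean (log2 fold change -0.55, SE 0.13, adjusted p = 0.00857, edgeR). IGFBP7 was at 2097, 1906 and 1944 CPM in Soft, from within the Control range to 111% of the Control mean (log2 fold change 0.06, SE 0.15, adjusted p = 0.745, edgeR). INSR was at 16.4, 17.1 and 16.5 CPM in Soft, or 165% of the Control mean, with no overlap (log2 fold change 0.72, SE 0.17, adjusted p = 0.00643, edgeR). IGFBP2, IGFBP3 and INSR kept their direction but missed 0.01 whenever any 1 Control or any 1 Soft library was left out, with adjusted p up to 0.0442, 0.0214 and 0.0333 by edgeR. IGFBP2 also missed it under other filters and scalings, which are given with the limits. The p-values of IGFBP3 are a description, since its Control libraries also entered the choice of the set.

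IGF1R was at 52.5, 54.4 and 52.8 CPM in Soft, above each Control library (36.3 to 42.2 CPM), and IRS2 was at 44.1, 41.5 and 39.1 CPM, above 35.3 to 35.5 CPM. Neither difference passed in the fit of 9 libraries, with a log2 fold change of 0.44 for IGF1R (SE 0.25, adjusted p = 0.169, edgeR) and one of 0.23 for IRS2 (SE 0.15, adjusted p = 0.221, edgeR). Both passed when Control and Soft were fitted without the hairpin libraries (adjusted p = 4.04e-06 and 0.00167, edgeR), and IGF1R also passed without the library of hairpin #1 (adjusted p = 0.00168, edgeR). Over all alternatives the adjusted p of edgeR or DESeq2 ran from 4.04e-06 to 0.337 for IGF1R and from 0.00167 to 0.435 for IRS2. IGF2R was at 382, 450 and 411 CPM in Soft and overlapped Control (log2 fold change 0.09, SE 0.12, adjusted p = 0.558, edgeR).

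**Figure D2:**
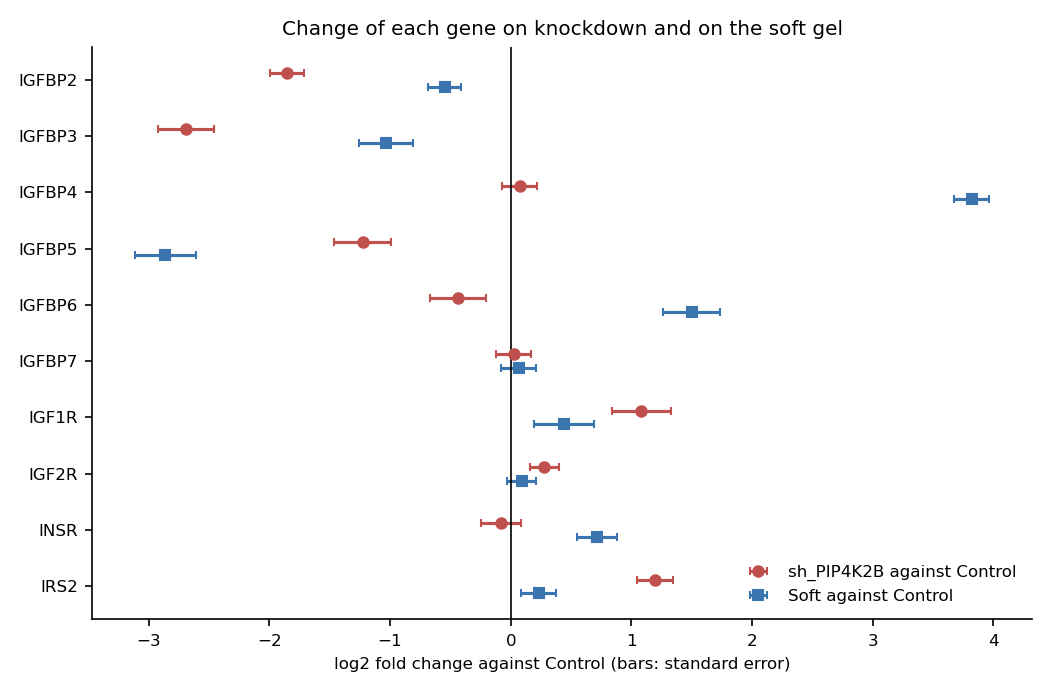
Log2 fold change of each of the 10 genes against Control, with bars for the standard error, in sh_PIP4K2B (circles) and Soft (squares), each from 3 libraries against the same 3 Control libraries. IGFBP3 and IGFBP2 were lower on knockdown (-2.69 and -1.85) than on the soft gel (-1.03 and -0.55), IGFBP5 was lower on the soft gel (-2.86) than on knockdown (-1.23), and IGFBP4 moved on the soft gel (3.82) and was at 0.07 on knockdown.

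Soft and sh_PIP4K2B were compared with each other to test whether a gene stood at different levels under the 2 treatments. IGFBP2, IGFBP4, IGFBP5, IGFBP6, INSR and IRS2 passed an adjusted p of 0.01 (edgeR), against 30.0% of all genes tested. IGFBP3 is left out of these calls and has no test here, because its hairpin libraries chose the set. IGFBP3 was 1.66 higher in Soft on the log2 scale (SE 0.23), or 315% of the sh_PIP4K2B mean. IGFBP4 was higher in Soft by 3.75 (SE 0.15, adjusted p = 1.31e-06, edgeR), IGFBP6 by 1.94 (SE 0.24, adjusted p = 0.000249, edgeR) and IGFBP2 by 1.31 (SE 0.14, adjusted p = 0.000141, edgeR). IGFBP5 was lower in Soft, at a log2 difference of -1.63 (SE 0.24, adjusted p = 0.000644, edgeR). IRS2 was also lower in Soft, at -0.96 (SE 0.15, adjusted p = 0.000746, edgeR), with 39.1 to 44.1 CPM against 65.9 to 100.1 CPM. INSR was higher in Soft by 0.80 (SE 0.17, adjusted p = 0.00389, edgeR), but missed 0.01 without hairpin #2 or any 1 Soft library and in the fit of these conditions alone, with adjusted p up to 0.0179. IGF1R differed by -0.64 (SE 0.25, adjusted p = 0.0569, edgeR), and by -0.93 (adjusted p = 6.39e-05, edgeR) without hairpin #1, whose level of 47.5 CPM was below the Soft libraries. Libraries did not overlap for 7 of the 10 genes, counting IGFBP3 although it chose the set, and for 54.0% of all genes tested. They overlapped for IGFBP7, at a difference of 0.04 (SE 0.15, adjusted p = 0.84, edgeR), and for IGF2R, at one of -0.19 (SE 0.12, adjusted p = 0.223, edgeR).

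The make-up of the 6 binding-protein transcripts was described as each gene's share of their summed level on the TPM scale. In Control, IGFBP7 made up 56.1% ± 0.440 and IGFBP3 38.1% ± 0.322 (SD, n = 3). With the hairpins, IGFBP3 made up 6.70%, 7.30% and 13.0% and IGFBP7 87.4%, 87.1% and 82.8%. In Soft, IGFBP3 made up 21.1% ± 1.15 and IGFBP7 66.3% ± 1.29, and IGFBP6 made up 10.6% ± 0.191 against 3.32% ± 0.0890 in Control. IGFBP4 went from 0.0918% ± 0.0151 in Control to 1.47% ± 0.0700 in Soft, so despite its high ratio it stayed a minor part. On the TPM scale the sum itself was 5769 ± 72.7 for Control, 4090 ± 317 for the hairpins and 5286 ± 165 for Soft. The shares depend on the length chosen. With the mean length of all annotated transcripts IGFBP3 made up 50.9% ± 0.317 and IGFBP7 42.9% ± 0.435 in Control, 14.5% ± 5.15 and 79.4% ± 4.44 with the hairpins, and 31.8% ± 1.49 and 57.3% ± 1.53 in Soft. These shares are linked, since a fall of IGFBP3 alone raises the share of all others, and no test was made on them.

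**Figure D3:**
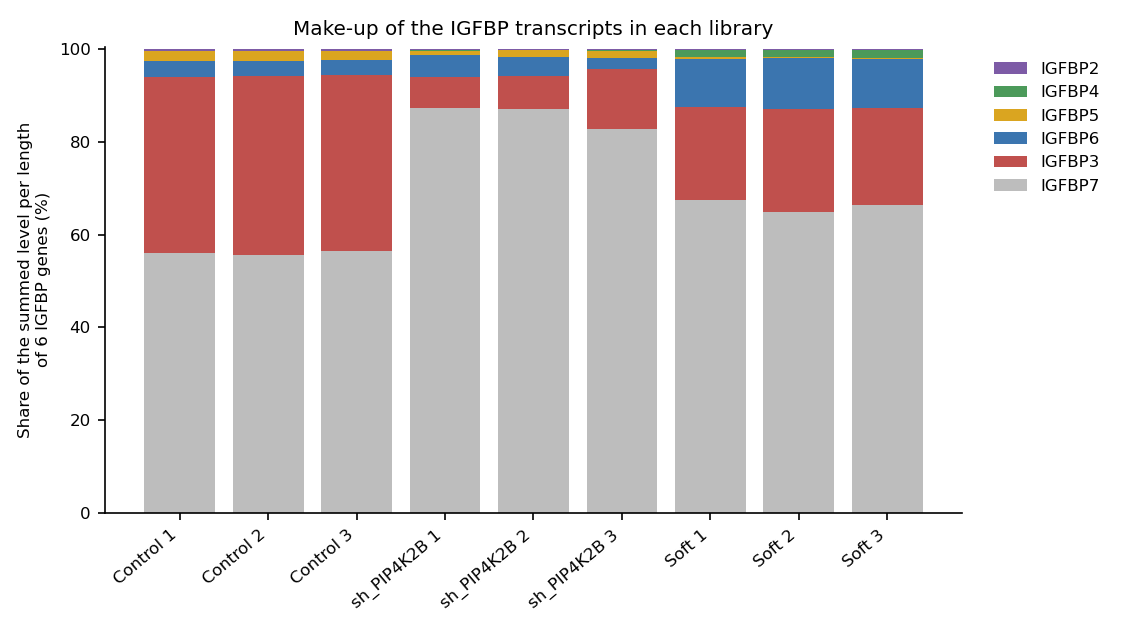
Share of each of 6 IGFBP genes in their summed level per transcript length (percent, y axis) in each of the 9 libraries (x axis), stacked to 100. IGFBP3 took 37.9% to 38.5% in Control, 6.70% to 13.0% with the hairpins and 20.0% to 22.3% in Soft, and IGFBP6 took 10.5% to 10.8% in Soft.

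Some binding-protein genes are neighbours in the genome. IGFBP2 and IGFBP5 lie on chromosome 2 with 7668 bp between them and no annotated gene in the gap, on opposite strands with their ends facing each other. Both were lower under both treatments, though in opposite order: IGFBP2 was at 27.6% of Control with the hairpins and 68.4% in Soft, and IGFBP5 at 42.7% and 13.8%. IGFBP3 lies on chromosome 7 at 18584 bp from IGFBP1 (chr7:45888360-45893660, plus strand), again with no gene between. IGFBP1, an insulin-regulated binding protein best known from liver, was at 4.56, 5.31 and 5.16 CPM in Control and at 35.9, 44.3 and 36.7 CPM in Soft. It rose there by 2.96 on the log2 scale (SE 0.20, adjusted p = 1.16e-05, edgeR), while its neighbour IGFBP3 fell. With the hairpins IGFBP1 was at 4.05, 2.41 and 2.52 CPM, a log2 fold change of -0.74 (SE 0.21) that missed the threshold.

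The ligands themselves were barely present. IGF1 and the insulin gene INS had 0 counts in all 9 libraries, which allows up to 0.148 CPM in the library with the fewest counts, and IGF2 was at 0 to 0.268 CPM. Of 5 genes for ligands and carriers, only IGFBP1 had enough counts to be tested. With the hairpins 0 of 1 passed by edgeR, against 5.54% of all genes (1 at an unadjusted p under 0.05 and 1 by DESeq2). Of 8 genes for proteases that cut binding proteins and inhibitors of those proteases, 7 were tested. In sh_PIP4K2B 0 of 7 passed by edgeR, against 5.54% of all genes, with 0 at an unadjusted p under 0.05 and 0 by DESeq2. PAPPA had a Control level of 113 ± 3.78 CPM (SD, n = 3), and the hairpin libraries lay on both sides of it, with 35.8 CPM for #1, 245 CPM for #2 and 138 CPM for #3. In Soft 1 of 7 rose, against 15.8% of all genes tested. It was HTRA1, a serine protease that cuts binding proteins, which went from 143 ± 3.10 to 411 ± 8.45 CPM (log2 fold change 1.52, SE 0.31, adjusted p = 0.00315, edgeR). PAPPA (114 ± 4.00 CPM in Soft, log2 fold change 0.01, SE 0.50) did not pass.

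Proteins outside the family that carry the same N-terminal IGFBP domain were counted next, 6 of 9 of them tested. In Soft 4 fell and 1 rose, against 14.8% and 15.8% of all genes tested, with a list median of -1.58 on the log2 scale against 0.01 for all genes. At an unadjusted p under 0.05 by edgeR there were 4 lower and 2 higher. DESeq2 called 4 lower and 3 higher, adding WISP1 and WISP2. These 2 genes had too few counts for the edgeR test, with 0 CPM in Control and means of 0.607 and 0.336 CPM in Soft. CTGF, a matricellular protein and a textbook target of YAP, fell from 1391 to 161 CPM (log2 fold change -3.11, SE 0.17, adjusted p = 4.93e-06, edgeR), and CYR61, of the same family, fell by 1.70 on the log2 scale (SE 0.16, adjusted p = 5e-05, edgeR). ESM1, secreted by endothelium, and CRIM1, a transmembrane protein that binds BMPs, fell by 4.79 (SE 0.71, adjusted p = 0.000597) and 1.45 (SE 0.22, adjusted p = 0.000633) on the same scale by edgeR. NOV, also of the CTGF family, rose by 1.10 (SE 0.23, adjusted p = 0.00373, edgeR). In sh_PIP4K2B 0 of 6 passed by edgeR, against 5.54% of all genes, with 1 at an unadjusted p under 0.05 and 1 by DESeq2. It was CTGF in both cases, with 634, 884 and 979 CPM for the hairpins and 1391 ± 10.4 CPM for Control.

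Downstream of the receptors, counts of calls were set beside the share of all genes called, though the lists were chosen with earlier results of these data known. Over 7 lists of other genes of the axis, from ligands to FOXO-regulated genes, 9 of 69 tested genes passed in sh_PIP4K2B (13.0%, against 5.54% of all genes) and 26 in Soft (37.7%, against 30.6%). Without any 1 Control library these counts were 2 to 5 and 16 to 17, without any 1 hairpin library the first was 14 to 19, and without any 1 Soft library the second was 15 to 17. Surface binders and mRNA-binding proteins had 0 of 5 in sh_PIP4K2B by edgeR, with 1 at an unadjusted p under 0.05 and 0 by DESeq2. In Soft 1 of 5 passed, TMEM219, a receptor for IGFBP3, which rose by 0.45 on the log2 scale (SE 0.10, adjusted p = 0.00646, edgeR). Of 11 tested adaptors and regulators of the receptors, 1 passed in sh_PIP4K2B, SOCS3, an inhibitor of cytokine and insulin signalling. Its level of 20.1 ± 0.936 CPM in Control (SD, n = 3) compared with 56.0, 40.2 and 46.2 CPM for the hairpins and 47.0 ± 3.14 CPM on the gel. In Soft 2 rose (SOCS3 by 1.23, SE 0.14, and the adaptor GAB1 by 0.96, SE 0.22) and 2 fell, GRB14, an inhibitor of the insulin receptor, with a log2 fold change of -1.97 (SE 0.18), and SOCS2 with -0.91 (SE 0.23). IRS1, the sister gene of IRS2, had 58.1 ± 2.00 CPM in Control, 35.5, 53.5 and 81.7 CPM for the hairpins, and 52.3 ± 0.786 CPM on the gel (log2 fold change -0.15, SE 0.24, adjusted p = 0.633, edgeR).

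Of 25 genes of the PI3K, AKT and mTOR relay, 3 were higher and 0 lower in sh_PIP4K2B by edgeR, against 2.76% and 2.77% of all genes tested, and 3 were higher and 2 lower in Soft, against 15.8% and 14.8%. DESeq2 called 4 higher and 1 lower in sh_PIP4K2B, the lower one being AKT2 (log2 fold change -0.30 by edgeR). At an unadjusted p under 0.05 by edgeR there were 7 higher and 3 lower, AKT2, AKT1 (-0.45) and the translation inhibitor EIF4EBP1 (-0.70). The list medians, 0.17 and -0.07 on the log2 scale, were near those of all genes, 0.05 and 0.01. With the hairpins the transcription factor FOXO1 rose by 1.88 (SE 0.34) and RICTOR, a subunit of the mTORC2 complex, by 0.79 (SE 0.13). RICTOR had 28.5 ± 4.15 CPM for the hairpins (SD, n = 3), 16.5 ± 0.962 CPM for Control and 15.8 ± 0.652 CPM for the gel. In Soft FOXO1 rose by 2.03 (SE 0.34, adjusted p = 0.0012, edgeR), FOXO4 by 1.94 (SE 0.20, adjusted p = 8.45e-05, edgeR) and TSC2, a brake on mTORC1, by 0.58 (SE 0.13, adjusted p = 0.00579, edgeR), while PIK3CB and RHEB had log2 fold changes of -0.53 (SE 0.10) and -0.44 (SE 0.10). FOXO1 remained low in level, with means of 1.11 CPM in Control, 4.13 CPM for the hairpins and 4.57 CPM on the gel.

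The list with the most calls held genes known to be regulated by FOXO factors, 14 of 16 tested. In sh_PIP4K2B 5 were higher and 0 lower by edgeR, against 2.76% and 2.77% of all genes tested, and the list median was 1.01 against 0.05 for all genes on the log2 scale. At an unadjusted p under 0.05 there were 9 higher and 0 lower, and by DESeq2 8 and 0. In Soft 9 were higher and 0 lower by edgeR, against 15.8% and 14.8% of all genes, and the list median was 1.11 against 0.01. There 10 were higher and 1 lower at an unadjusted p under 0.05, and 9 and 1 by DESeq2. The lower gene was CITED2, a transcriptional cofactor, at 401 to 435 CPM in Control and 175 to 191 CPM in Soft, which missed 0.01 by edgeR (adjusted p = 0.0192) with a log2 fold change of -1.16 (SE 0.34). Many of these genes answer to other factors as well. The count describes the list only, which was chosen with earlier results of these data known. BBC3 and BCL2L11, which encode the pro-apoptotic proteins PUMA and BIM, both passed in each comparison but in unlike measure. BBC3 was at 33.7, 34.1 and 35.1 CPM with the hairpins, 6.99 ± 0.391 CPM in Control and 13.3 ± 0.276 CPM in Soft. BCL2L11 was at 11.1, 10.4 and 10.3 CPM with the hairpins, 4.17 ± 0.610 CPM in Control and 48.0 ± 2.79 CPM in Soft. Soft minus sh_PIP4K2B was -1.37 for BBC3 (SE 0.10, adjusted p = 2.46e-05, edgeR) and 2.17 for BCL2L11 (SE 0.13, adjusted p = 8.1e-06, edgeR) on the log2 scale. CDKN1B, the cell cycle inhibitor p27, rose by 1.36 (SE 0.17) and 0.97 (SE 0.17), and KLF9, a transcription factor induced by steroid hormones, by 1.09 (SE 0.19) and 1.89 (SE 0.20), in sh_PIP4K2B and Soft. SESN1, a sestrin that restrains mTORC1, was at 72.0, 93.4 and 40.3 CPM with the hairpins, 15.8 ± 0.776 CPM in Control and 14.0 ± 0.967 CPM in Soft. CCNG2, BCL6, PIK3IP1, TRIB1 and PDK4 were the others called higher in Soft, PIK3IP1, an inhibitor of PI3K, with 37.8 ± 0.565 CPM against 8.02 ± 0.812 CPM in Control. PDK4 was near the floor, at 0 to 0.0874 CPM in Control and 0.524 to 0.730 CPM in Soft. Several of these pathway calls rested on all libraries being present. In sh_PIP4K2B, FOXO1, KLF9 and RICTOR missed 0.01 without any 1 Control or any 1 Soft library, KLF9 also without hairpin #2, SESN1 without any 1 Control library, CDKN1B without Control library 1 or 2, and SOCS3 without Control library 2. In Soft, HTRA1, NOV, TMEM219, GAB1, SOCS2, TSC2, RHEB, TRIB1 and PDK4 missed it without any 1 Control or any 1 Soft library, PIK3CB without Control library 2 or any 1 Soft library, and BCL6 without any 1 Control library or Soft library 1.

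**Figure D4:**
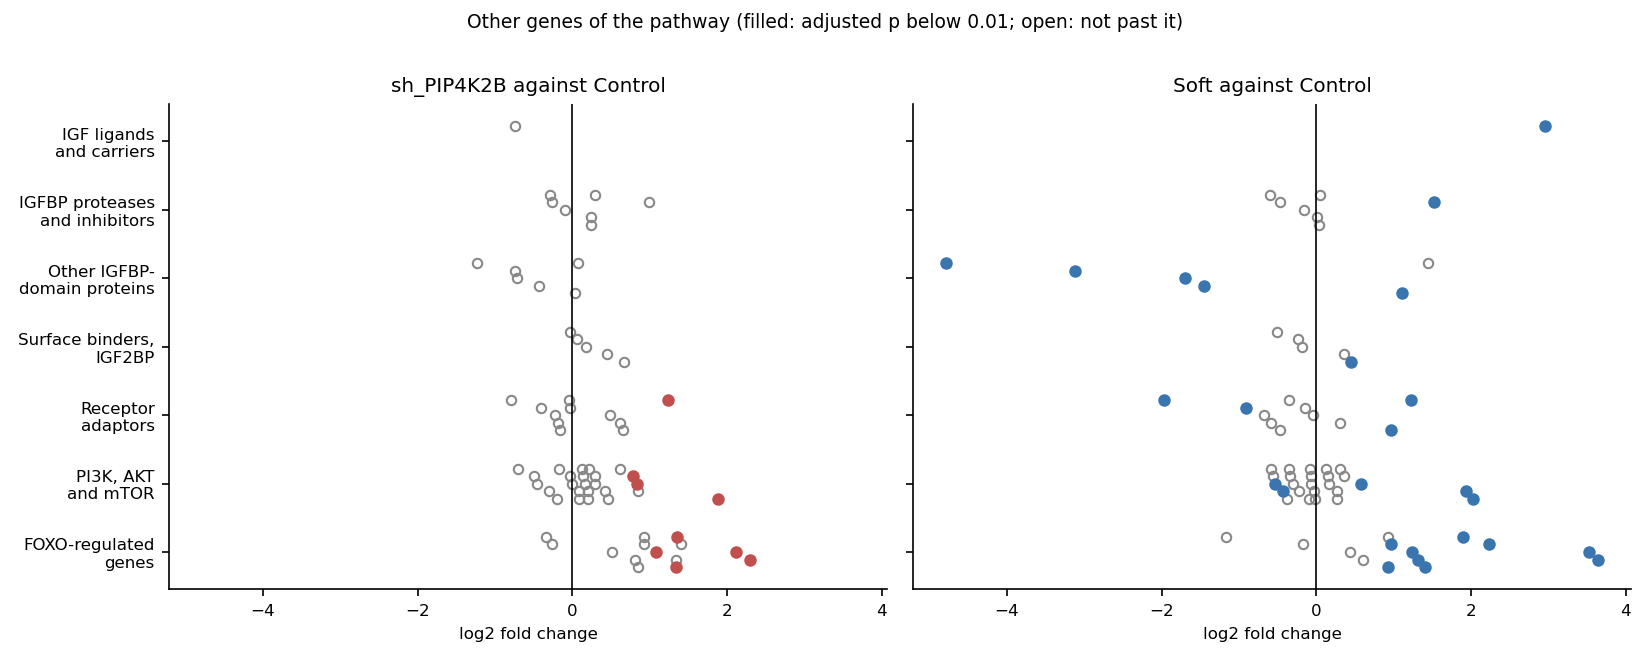
Log2 fold change (x axis) of the other tested genes of the IGF pathway in 7 lists (y axis), for sh_PIP4K2B and Soft against the same Control libraries, with filled circles for genes past an adjusted p of 0.01 and open circles for the rest. In the list of FOXO-regulated genes 5 of 14 were called higher in sh_PIP4K2B and 9 of 14 in Soft. The shares of all genes tested were 2.76% and 15.8%. Of the other IGFBP-domain proteins 4 of 6 were called lower and 1 higher in Soft, against 14.8% and 15.8% of all genes.

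The genes whose pattern was most like that of IGFBP3 were sought by Pearson correlation of log2 CPM over the 9 libraries, among 11693 genes. As the libraries fall into 3 conditions, such a coefficient mainly states the differences between the conditions, and it is given as a description. They were CKAP2L (0.99), SLIT3 (0.988), CHST3 (0.987), IGFBP2 (0.984) and PRR11 (0.981). SLIT3, a secreted guidance protein, had group means of 120 CPM for Control, 39.1 CPM for the hairpins and 85.1 CPM for Soft, and CHST3, a chondroitin sulfotransferase, had 333, 156 and 239 CPM. IGFBP2 was thus the only member of the set among the 5 nearest to IGFBP3. The genes most like IGFBP4 were PRRT3, PCDH7, SLC6A9, MUC1 and RAB26, with coefficients from 0.994 to 0.997, of which SLC6A9, a glycine transporter, had 9.82, 10.7 and 85.1 CPM. By Spearman rank correlation the coefficients were only 0.517 (RAB26) to 0.933 (PCDH7) for IGFBP4. For IGFBP3 they were 0.883 (SLIT3) to 0.933 (CKAP2L, CHST3 and PRR11).

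No 75-mer of the canonical transcript of any of the 10 genes, 75 nt being the read length, occurred in a transcript of another gene. IGFBP7 overlaps exons of POLR2B and IGFBP7-AS1 on the other strand, with total counts of 7.79% and 0.0147% of those of IGFBP7. Also on the other strand, IGFBP5 overlaps DIRC3-AS1 and IRS2 overlaps a gene without a symbol, neither of which was among the symbols counted. Whether the counting used strand is not given in the sources used here, so reads of these overlaps cannot be assigned with certainty.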

How the data were processed

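The 9 libraries came from hTERT_RPE1 cells, 3 each for Control, sh_PIP4K2B and Soft, grouped by the labels. From stranded mRNA libraries the authors mapped read pairs to GRCh38/hg38 (STAR), and they deposited estimated counts (expected counts) per gene symbol without normalisation or pooling. The submitters' processing notes also name Salmon. Its role, the annotation and the strand setting are not given in the sources used here. Of the values 12.3% were not whole, and all were rounded. The 10 genes and all lists were chosen with earlier results of these data known.

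The test was the quasi-likelihood F test of edgeR 4.0.16 (R 4.3.3, TMM, filterByExpr, Benjamini-Hochberg adjustment over 13784 genes, threshold 0.01) in 1 fit over all libraries. Standard errors were taken from the F statistic, and the script was checked on simulated counts. Alternatives were other filters and scalings, DESeq2 1.42.0, fits without the condition not compared, a block for the replicate number, fits without each library in turn, and other thresholds. Levels per length used GENCODE release 44 canonical transcripts, found for 24542 of 26475 symbols (23161 by current and 1381 by older symbols) with 96.33% of counts. Floors cover counting error only. Named by rule were the 10 genes, PIP4K2B, IGF1, IGF2, IGFBP1, IRS1, called genes of the lists (up to 6 per list and comparison, by size of change), and the 5 genes most like IGFBP3 and IGFBP4. Other genes, such as PAPPA and INS, were named after their values were seen. A called gene of the lists is counted but not reported here by name.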

Additional observations from a re-analysis of the deposited data

Results flagged for a closer look

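Of the 10 genes, 6 were marked because their level on the soft gel differed from that on knockdown in a direct test over 3 libraries against 3 (edgeR, Benjamini-Hochberg over 13784 genes). The log2 differences, Soft minus sh_PIP4K2B, were 1.31 for IGFBP2 (adjusted p = 0.000141), 3.75 for IGFBP4 (adjusted p = 1.31e-06), -1.63 for IGFBP5 (adjusted p = 0.000644), 1.94 for IGFBP6 (adjusted p = 0.000249), 0.80 for INSR (adjusted p = 0.00389) and -0.96 for IRS2 (adjusted p = 0.000746), all by edgeR. In each of these genes the 3 Soft libraries and the 3 hairpin libraries did not overlap, as was so for 54.0% of all genes tested, and 30.0% of all genes were called.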

How the results depend on the processing

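Adding the replicate number as a block moved the calls in sh_PIP4K2B against Control from 763 to 295 genes, and the count among the 10 genes there from 4 to 3. It ended the call of IGFBP2 in Soft against Control (adjusted p = 0.0223, edgeR) and no other call of the 10 genes in that comparison or in Soft against sh_PIP4K2B. Of the other genes of the axis it moved the calls from 9 to 6 in sh_PIP4K2B (without FOXO1, KLF9 and RICTOR) and from 26 to 23 in Soft (without RHEB, TMEM219 and PDK4). Sample titles give same-numbered Control and Soft libraries the same vector number. Deviations of same-numbered libraries correlated between -0.115 and 0.0394. The median SD of log2 CPM was only 0.081 in Control and 0.073 in Soft, so these correlations cannot settle whether the libraries were paired.

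In sh_PIP4K2B against Control the count of genes was 1996 by DESeq2, 5 in the fit of these conditions alone, 66 to 161 without any 1 Control library, 313 to 338 without any 1 Soft library, 1660 to 2013 without any 1 hairpin library, 2375 at an adjusted p of 0.05 and 90 at 0.001. Of the 10 genes, 0 passed in the fit of these conditions alone (edgeR, 5 at an unadjusted p under 0.05, and 5 by DESeq2 on all libraries), 2 to 5 without 1 library and 2 at 0.001, and of the other genes of the axis 18 by DESeq2, 1 in the fit of these conditions alone, 2 to 19 without 1 library, 17 at 0.05 and 3 at 0.001. In Soft against Control the count was 9601 in the fit of these conditions alone, 2506 to 2721 without any 1 Control or Soft library, 6373 without hairpin #1, 6498 at 0.05 and 1918 at 0.001. Of the 10 genes 3 to 7 passed without 1 library and 3 at 0.001, and of the other genes 53 in the fit of these conditions alone, 15 to 35 without 1 library and 12 at 0.001. In Soft against sh_PIP4K2B it was 2183 in the fit of these conditions alone, 2350 to 2395 without any 1 Soft library (5374 without hairpin #1), 6372 at 0.05 and 1804 at 0.001. There 6 to 8 of the 10 genes passed without 1 library, with IGFBP3 counted although its hairpin libraries chose the set. The 2-condition fit of Control and Soft holds no hairpin library, whose spread was the widest, and every fit without a library has fewer samples.

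IGFBP2 in Soft against Control missed 0.01 with no filter, with at least 10 counts in every library, with library size only and with the upper quartile (adjusted p from 0.0101 to 0.0238, edgeR). Of the other genes called there, TMEM219 and PDK4 missed it with no filter. SOCS2 missed it with at least 10 counts in every library, where PDK4 had too few counts to be tested. RHEB and SOCS2 missed it with library size only, and SOCS2 with the upper quartile. Log2 fold changes turned sign in sh_PIP4K2B against Control for IGFBP4 (-0.0226 to 0.219 without 1 library), IGFBP7 (-0.143 to 0.0979 without 1 library) and INSR (-0.289 to 0.0211 without 1 library, 0.0169 with library size only), and in Soft against sh_PIP4K2B for IGFBP7 (-0.0470 to 0.204 without 1 library). None of these had passed the test. Of the values of single genes under an alternative, 475 kept direction and side of the threshold, 50 lost and 7 gained the call, and 8 turned sign. With the mean length of all transcripts the Control levels on the TPM scale were 29.6 for IGF1R, 4.61 for INSR, 9.93 for IGFBP2, 2787 for IGFBP3, 3.33 for IGFBP4, 185 for IGFBP5, 137 for IGFBP6 and 2348 for IGFBP7. Over all libraries IGFBP2 had the fewest counts of the 10 genes, 54 to 232 per library. In Control IGFBP4 had fewer, 89 to 131 per library.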

Other observations

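The hairpins did not rank alike over the 10 genes. PIP4K2B was lowest with hairpin #3 (36.6 CPM, against 48.4 and 40.9 CPM with hairpins #1 and #2). IGFBP3 and IGFBP5 were lowest with hairpin #1, at 241 and 76.1 CPM, and IGF1R and IRS2 were nearest to Control with it, at 47.5 and 65.9 CPM. IGFBP6 was lowest and IRS2 highest with hairpin #3, at 32.5 and 100.1 CPM. With 1 library per hairpin, a hairpin and a library cannot be told apart, and no test was made.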
